A study of Mus musculus with 2 samples.

Results

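Asic2, Skap1 and Cdh22 are long genes of mouse chromosomes 11 and 2 that carried chains of neighbouring H3K27me3 peaks in chondrocytes. They were chosen by symbol from the authors' table that joins each peak to the genes within 5 kb, because many peaks were joined to each of them. These 3 genes are 3 of the 4932 gene symbols of that table, and the 117 peaks joined to them (73 at Asic2, 28 at Skap1 and 16 at Cdh22) are 117 of 19359 peaks in all. The number of peaks and their summed length chose the genes, so every value of the peaks below is a description, with no test.

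The cells were primary chondrocytes of wild-type CD1 newborns, released from rib cartilage with collagenase and held overnight in culture. Chromatin was cut with enzymes, and 1 library was made from DNA that an H3K27me3 antibody brought down and 1 library from input DNA, taken before that step. H3K27me3 is histone H3 with 3 methyl groups on lysine 27. The libraries are called by their titles here, although their antibody tags say the reverse. The tag H3K27me3 stands on the input library and the tag input on the precipitated one. With 1 library in each group no value has a replicate check, and no p-value was computed. The labels do not say how many animals the cells came from.

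The mark is written by Polycomb repressive complex 2 (PRC2) and is known for long stretches of silent chromatin, with the Hox clusters as the classical case. None of the 3 genes is known as a cartilage gene. Asic2 encodes a subunit of the proton-gated sodium channels of neurons, in the family that also holds the epithelial sodium channel. Skap1 encodes an adaptor protein of T cells that binds the adaptor Fyb (ADAP) and links the T cell receptor to integrin adhesion. Cdh22 encodes a type II classical cadherin, a calcium-dependent adhesion protein known from brain and pituitary.

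A peak is a region in which the precipitated library exceeded the input by the authors' peak caller. Its pileup is the mean number of precipitated DNA fragments over each base of the peak. Its fold enrichment is the ratio of that pileup to the input background after 1 was added to each, and its q-value is the adjusted p-value averaged over the peak. This mean lay above 0.05 in part of the peaks, for a reason that was not tested. Libraries of 17237574 precipitated and 17004082 input tags (aligned reads) after filtering gave peaks of low height. The median pileup of the whole list was 11.04 fragments, its lowest value was 9.86, and the median fold enrichment was 3.16. Regions below that height were not listed, which limits every statement on a gap or on a gene without a peak. A list of 16 chondrocyte genes was looked up for the labelled cell type, among them Col2a1, Acan and Sox9, which encode cartilage collagen, aggrecan and the transcription factor of the lineage. Of these, 0 had a peak over the body or within 5 kb (0%, 95% Wilson interval up to 19.4%, which covers counting error only), and the nearest peaks lay 15.5 to 2126.5 kb away. The share over all protein-coding genes with a peak over the body, 15.5%, lies within this interval, so the count does not check the label. No expression was measured in these libraries.

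The promoters of Asic2 and Cdh22 are shown first, because the data bear on them in different ways: the start of Asic2 lay under a peak, and the start of Cdh22 lay in a short gap between a pair of wide peaks. Each sequence holds 250 bases before and 50 bases after the start of transcription, read 5′ to 3′ in the direction of the gene, from the RefSeq promoters of GRCm38.p6, with every CG in capitals. The letters CG read the same on both strands. Asic2 has an outer and an inner start, and the start of Hoxb1, the HoxB gene next to Skap1, is shown for comparison.
Asic2 outer start, chr11:81968347-81968646, minus strand: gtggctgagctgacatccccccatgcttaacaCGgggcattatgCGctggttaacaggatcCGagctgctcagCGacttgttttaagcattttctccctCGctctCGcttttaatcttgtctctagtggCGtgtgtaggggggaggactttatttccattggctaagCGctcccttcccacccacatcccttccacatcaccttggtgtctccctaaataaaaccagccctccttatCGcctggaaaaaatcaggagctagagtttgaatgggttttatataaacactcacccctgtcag
Asic2 inner start, chr11:81152854-81153153, minus strand: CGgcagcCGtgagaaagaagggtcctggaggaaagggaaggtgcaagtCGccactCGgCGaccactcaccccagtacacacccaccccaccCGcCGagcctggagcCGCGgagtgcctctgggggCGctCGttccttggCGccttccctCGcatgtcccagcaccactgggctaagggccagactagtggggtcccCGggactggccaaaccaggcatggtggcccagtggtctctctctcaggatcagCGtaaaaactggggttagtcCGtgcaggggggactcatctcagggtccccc
Cdh22 start, chr2:165234688-165234987, minus strand: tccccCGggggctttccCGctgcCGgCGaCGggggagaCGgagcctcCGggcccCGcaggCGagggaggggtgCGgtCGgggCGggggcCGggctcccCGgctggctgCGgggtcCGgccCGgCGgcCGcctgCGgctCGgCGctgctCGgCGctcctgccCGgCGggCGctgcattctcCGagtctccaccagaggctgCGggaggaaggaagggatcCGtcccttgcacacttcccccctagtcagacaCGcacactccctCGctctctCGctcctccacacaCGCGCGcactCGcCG
Hoxb1 start, chr11:96365508-96365807, plus strand: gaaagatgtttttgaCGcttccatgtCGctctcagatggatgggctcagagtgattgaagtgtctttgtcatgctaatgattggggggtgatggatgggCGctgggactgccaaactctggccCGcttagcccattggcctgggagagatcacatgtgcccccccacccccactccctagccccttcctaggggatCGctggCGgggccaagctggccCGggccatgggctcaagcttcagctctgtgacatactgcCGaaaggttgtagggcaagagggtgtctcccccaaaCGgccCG

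The Cdh22 promoter was the richest in CG of these 4, with 38 CG and 76.3% G or C. At least as many stood in 4.98% of the 32619 RefSeq promoters. The outer Asic2 promoter held 9 CG, its inner promoter 16 and the Hoxb1 promoter 10, against a median of 7 (quartiles 3 and 20) over all promoters. At least as many CG as in the outer and the inner Asic2 promoter stood in 46.1% and 33.2% of all promoters, and at least 1 CG stood in 94.7%. Of all promoters, 4.61% had their start under a peak and another 2.88% had it in a gap of at most 5 kb between peaks. The outer Asic2 start and the Hoxb1 start belong to the first kind. The inner Asic2 start and the Cdh22 start belong to the second. The median number of CG was 10 in promoters of the first kind and 16 in those of the second.

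The chain of Asic2 was long, thin and interrupted. Asic2 (ENSMUSG00000020704) is on the minus strand of chromosome 11 from 80880170 to 81968457 (GRCm38), which is 1088 kb, and 73 peaks were joined to it. With 72 of them over its RefSeq body, it had the most peaks of the genes of 100 kb or more. The peaks ran from 80889453 to 81973006. Of the 73, 71 lay inside the gene, 1 covered its start and 1 lay upstream of it. They summed to 140.0 kb and placed 138.6 kb of the gene body under peaks, which is 12.7%. The remainder of the gene lay in gaps.

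The peaks of Asic2 were close to the median of the list in width and height. Their widths ran from 294 bp to 13.8 kb with a median of 1.27 kb (quartiles 0.796 and 2.01 kb), equal to the median of 1.27 kb over the whole list. In 25 peaks the width was under 1 kb, as in 37.5% of all peaks. In Skap1 and Cdh22 this was so in 1 and 4 peaks. The pileup of the Asic2 peaks lay between 9.86 and 12.79 fragments, with a median of 10.87, and the lowest value was the lowest of the whole list. The fold enrichment lay between 2.87 and 3.75, with a median of 3.11. The q-value was at most 0.05 in 39 of the 73 peaks (53.4%, Wilson interval 42.1 to 64.4%), where 60.8% of all peaks passed. It was at most 0.01 in 5 (6.85%, 2.96 to 15.1%), where 11.0% of all peaks passed. Both values used the contrast that chose the gene, so nothing is read from the difference to the background.

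The start of Asic2 lay under a small peak. This peak was 668 bp wide (81968059 to 81968726), at 3.57-fold with a q-value of 0.00923, and it covered the outer promoter printed above. The upstream peak was 1142 bp wide (81971865 to 81973006) and ended 3408 bp before the start, with a fold enrichment of 3.07. Inside the gene the next peaks were sparse. Only 6 peak centres, with 5.02 kb under peaks, lay in the first 100 kb. No peak centre lay between 100 and 200 kb from the start, where the widest gap of the chain, of 121.4 kb, separated a peak of 975 bp from a peak of 1138 bp.

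The densest stretch of Asic2 was in its interior, 400 to 500 kb from the start. It held 11 peak centres and 36.3 kb under peaks. Both peaks of 10 kb or more stood there, a peak of 13.8 kb (81508637 to 81522459, 3.30-fold, q-value 0.0231) and a peak of 12.4 kb (81490637 to 81503065, 3.26-fold, q-value 0.0284), with a peak of 1956 bp and 3.55-fold between them. The peak of highest fold enrichment, 3.75, was a peak of 1351 bp in the same stretch (81531843 to 81533193, q-value 0.00387). Wide peaks thus did not have the highest ratio in this gene.

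A second dense stretch lay 800 to 900 kb from the start, with 11 peak centres and 21.1 kb under peaks. The inner start of Asic2 (first base 81152903) is in it. Asic2 is known to make subunit forms that differ in their first exon. This start lay in a gap of 3004 bp, 1268 bp from a peak of 3102 bp (81148533 to 81151634, 3.42-fold) on 1 side and 1735 bp from a peak of 6564 bp (81154639 to 81161202, 3.46-fold) on the other. The outer start was therefore under a narrow peak, and the inner start was flanked by wider ones.

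**Figure D1:**
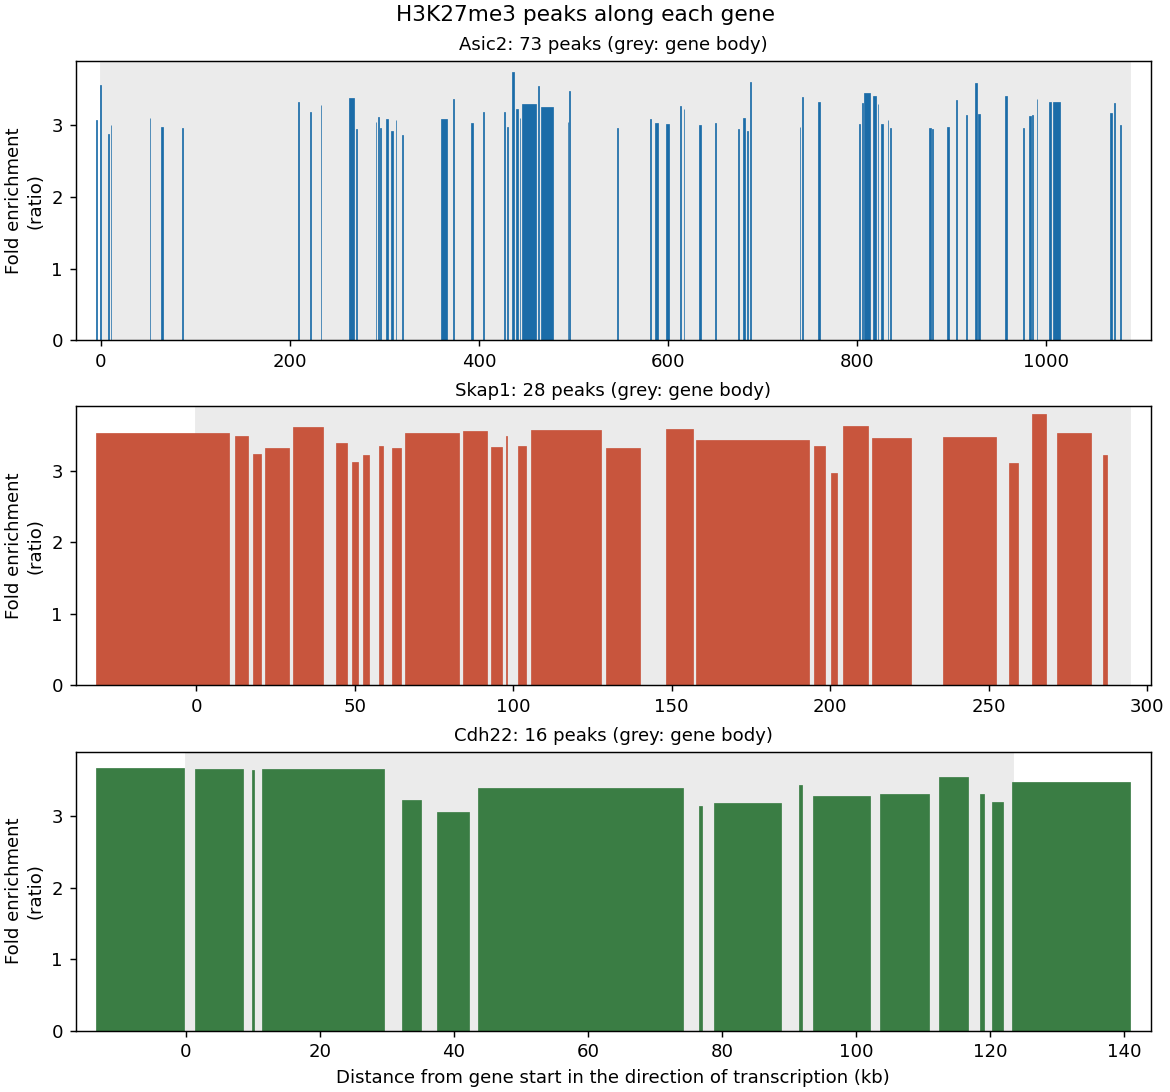
Each bar is 1 H3K27me3 peak of Asic2 (73 peaks), Skap1 (28) or Cdh22 (16), with its width on the horizontal axis (distance from the gene start in the direction of transcription, kb, a different range in each panel) and its fold enrichment over input (a ratio) on the vertical axis. Asic2 shows separate narrow bars with a gap of 121.4 kb, while the bars of Skap1 and Cdh22 stand over 72.9% and 79.0% of the grey gene body.

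With all peaks counted, most of Skap1 lay under its chain. Skap1 (ENSMUSG00000057058) is on the plus strand of chromosome 11 from 96464594 to 96759130, which is 294.5 kb, and 214.8 kb of it (72.9%) lay under peaks. Its 28 peaks ran from 96433083 to 96751774 and summed to 246.3 kb, with 27 inside the gene and 1 over its start. The 27 gaps between them had a median of 1.76 kb (quartiles 1.34 and 3.35 kb) and added up to 72.4 kb. Of these gaps, 17 were under 2 kb (63.0%), against 23.0% of all gaps of the list, and 2 were over 5 kb. Less than 50% of the body lay under peaks of a q-value of at most 0.01 (45.7%) or of a fold enrichment of at least 3.5 (33.3%).

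The start of Skap1 lay under the widest peak of its chain. This peak was 41.96 kb wide (96433083 to 96475042) with a pileup of 12.92 fragments, 3.53-fold enrichment and a q-value of 0.00668. It began 31.5 kb upstream of the gene and ended 10.4 kb inside it. The whole of the long non-coding RNA gene Gm11529, which lies next to the Skap1 start, was under the same peak. Another wide peak, of 35.5 kb (96622395 to 96657929, 3.43-fold, q-value 0.0103), stood 157.8 to 193.3 kb from the start. A peak of 22.2 kb (96570109 to 96592318, 3.56-fold) stood 105.5 to 127.7 kb from the start.

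Peaks of different height stood next to each other along Skap1. The highest fold enrichment, 3.79, was in a peak of 4510 bp near the far end of the gene (96728207 to 96732716), 263.6 to 268.1 kb from the start, and its q-value was 0.00256. The lowest, 2.97, was in a peak of 2139 bp (96664681 to 96666819) with a q-value of 0.0779. This weak peak stood 1.83 kb from a peak of 7850 bp with 3.63-fold. The widest gaps, of 9971 and 8331 bp, began 225.6 and 139.9 kb from the start. The last peak, of 1023 bp, ended 287.2 kb from the start, short of the end of the gene.

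Peaks of Skap1 were wider and higher than the median of the list. Their widths ran from 306 bp to 41.96 kb with a median of 4.25 kb (quartiles 2.65 and 10.5 kb). The 8 peaks of 10 kb or more (28.6%, against 3.46% of all peaks) held 167.1 kb, which is 67.8% of the summed length. The pileup lay between 10.4 and 14.03 fragments with a median of 12.27, and the median fold enrichment was 3.41. The q-value was at most 0.05 in 26 of 28 peaks (92.9%, 77.4 to 98.0%) and at most 0.01 in 13 (46.4%, 29.5 to 64.2%). Of all peaks, 60.8% and 11.0% passed these limits. The fold enrichment was at least 3.5 in 9 peaks of Skap1, 5 of Asic2 and 5 of Cdh22, against 9.56% of all peaks. As for Asic2, these values come from the contrast that chose the gene.

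The Skap1 chain was continuous with that of the HoxB cluster at the chosen joining distance. The HoxB genes encode homeodomain transcription factors of body axis patterning, and Hoxb1 lies 96.3 kb upstream of Skap1. When peaks separated by at most 20 kb were joined, the peaks from Hoxb13 to the far end of Skap1 formed 1 block. At 10 kb they also formed 1 block, and at 5 kb they formed 5. At 20 kb they broke into 4 blocks when the q-value had to be at most 0.01 and into 8 when the fold enrichment had to be at least 3.5. The 20-kb block ran from 96082109 to 96751774 over 669.7 kb and held 64 peaks with 502.8 kb under them (75.1%). It ranked first of the 6588 blocks of the genome by length under peaks and second by span.

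The HoxB end of the block had the highest enrichment of 3 neighbouring segments. From Hoxb13 to Hoxb1, 173.9 kb held 13 peak centres and were 84.1% under peaks, with a median fold enrichment of 3.496 and a median pileup of 12.5 fragments. The 96.3 kb between Hoxb1 and Skap1 held 11 peak centres and were 71.2% under peaks, with medians of 3.32 and 11.59. The Skap1 body held 27 peak centres and was 72.9% under peaks, with medians of 3.38 and 12.19. The median input background of the peaks was nearly alike in the 3 segments, at 2.82, 2.85 and 2.83 fragments.

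The stretch between Hoxb1 and Skap1 was thus the weakest of the 3 segments in these medians, though no gap in it was wide. Its gaps had a median of 2.35 kb and a largest value of 5.36 kb, against 1.46 and 4.99 kb in the HoxB segment and 1.70 and 9.97 kb in the Skap1 body. Its peaks were also the narrowest, with a median of 2.67 kb against 5.54 kb and 3.997 kb. The q-value was at most 0.01 in 4 of 11 peaks (36.4%), in 8 of 13 peaks of the HoxB segment (61.5%) and in 12 of 27 of the Skap1 body (44.4%). Of all peaks, 11.0% passed this limit. The medians of the segments rest on few peaks and were not tested.

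**Figure D2:**
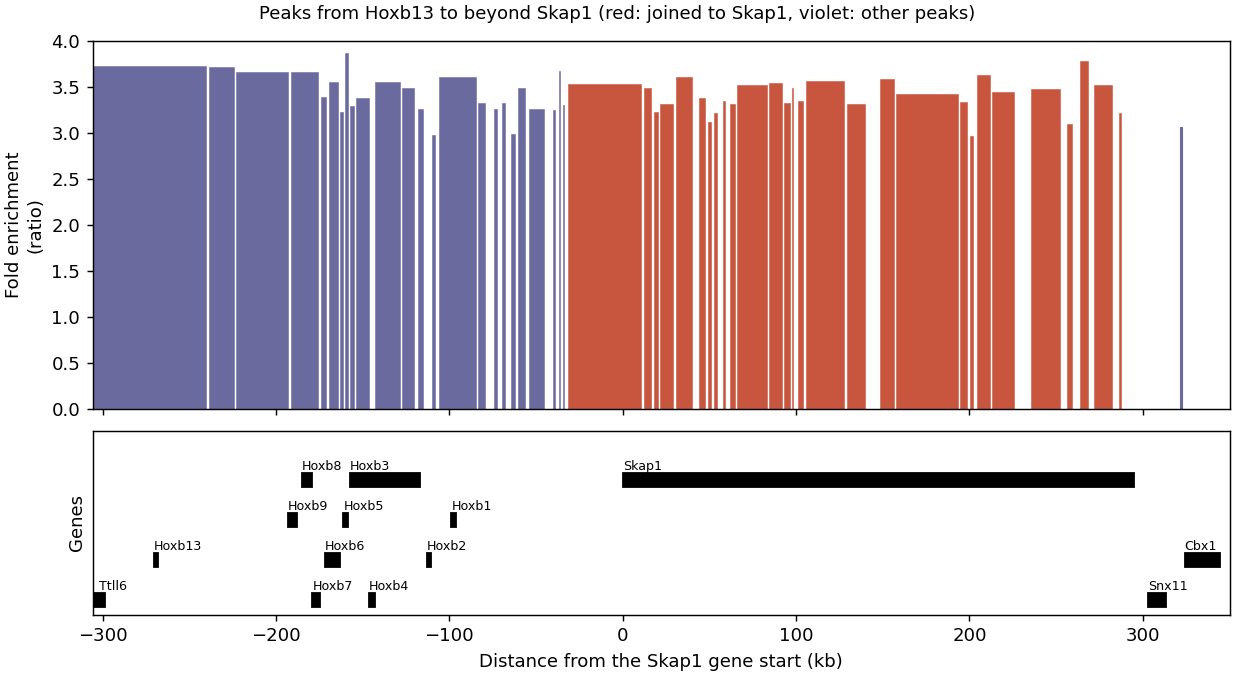
The upper panel shows each peak from the HoxB cluster to beyond Skap1 as a bar, with its extent in kb from the Skap1 start on the horizontal axis and its fold enrichment (a ratio) on the vertical axis, in red where joined to Skap1 and in violet otherwise, and the lower panel shows the protein-coding genes. The bars run through the stretch between Hoxb1 and Skap1 with no gap over 5.36 kb, and beyond the end of Skap1 only a peak of 0.967 kb stands, between Snx11 and Cbx1.

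Within the HoxB cluster the cover differed from gene to gene. Hoxb13, Hoxb8 and Hoxb1 lay wholly under peaks. The bodies of Hoxb9 (72.1%), Hoxb7 (73.3%), Hoxb6 (67.9%), Hoxb5 (55.9%) and Hoxb3 (77.3%) were covered in part. Hoxb4 had 4.86% of its body under a peak, yet this included its start, and the body of Hoxb2 was free of peaks, with the nearest peak 0.507 kb away. The microRNA genes Mir196a-1 and Mir10a of the cluster lay under peaks in full. The peak of highest fold enrichment in the block from Hoxb13 on, 3.88, was a peak of 1513 bp (96304664 to 96306176) that reached over part of Hoxb5. The widest peak there, of 65.6 kb (96159004 to 96224560, 3.74-fold), covered Hoxb13 and the long non-coding RNA genes Gm30134 and Gm11538.

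The other RNA genes between Hoxb13 and the end of Skap1 were covered to varying degrees. Gm53 and Gm51876, long non-coding RNA genes of the cluster, and the pseudogene Gm11539 lay wholly under peaks. The antisense genes Hoxb5os and Hoxb3os had 67.9% and 40.5% of their length under peaks. Gm38960, a long non-coding RNA gene inside Skap1, had 66.9%. The pseudogene Gm11531, in the stretch between Hoxb1 and Skap1, had none, and the nearest peak was 0.088 kb away.

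The block ended inside Skap1, and little of the mark lay beyond it. Snx11, a sorting nexin gene that lies 7.92 kb beyond Skap1, had no peak over its body, and the nearest peak was 8.32 kb away. The next peak beyond the chain lay 34.3 kb away and was small (0.967 kb, 3.07-fold, q-value 0.0667). In the 100 kb upstream of Skap1, 11 peaks placed 72.3 kb under peaks, and in the 100 kb downstream 1 peak placed 0.967 kb. The genes Cbx1, Nfe2l1 and Copz2 further on had no peak over their bodies. At the other end the block passed Hoxb13 into Ttll6 (67.3% under peaks) and Calcoco2 (50.5%), and Atp5g1, Ube2z and Snf8 beyond it had no peak over their bodies. Further on, Gip had 2 peaks with 50.6% of its body under them, and Igf2bp1 had 1 with 0.411 kb.

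Skap2, the paralogue of Skap1, carried no chain. It is on chromosome 6 from 51859165 to 52012549, over 153.4 kb. No peak overlapped Skap2. The single peak joined to it stood 4.85 kb from the gene and was 12.1 kb wide with 3.67-fold. The position of Skap2 was looked up after the values of Skap1 had been seen.

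With all peaks counted, Cdh22 had the largest share of its body under peaks of the 3 genes. Cdh22 (ENSMUSG00000053166) is on the minus strand of chromosome 2 from 165111508 to 165234853, which is 123.3 kb, and 97.4 kb of it (79.0%) lay under peaks. Its 16 peaks ran from 165093989 to 165248240 and summed to 128.0 kb, with 14 inside the gene, 1 over its end and 1 upstream. The 15 gaps were short, from 1206 bp to 2.69 kb with a median of 1.60 kb. Of them, 11 were under 2 kb (73.3%), against 23.0% of all gaps of the list. The chain reached past both ends of the gene. With peaks of a q-value of at most 0.01, 24.5% of Cdh22 and 45.7% of Skap1 lay under peaks, and where the fold enrichment was at least 3.5 the shares were 24.4% and 33.3%, so that the order of both genes turned.

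No peak covered the start of Cdh22, but wide peaks stood on both sides of it. The upstream peak was 13.04 kb wide (165235199 to 165248240) and ended 346 bp before the start of the deposited gene record. It had the highest fold enrichment of the chain, 3.68, with a q-value of 0.00337. The next peak, 7.17 kb wide (165226324 to 165233494, 3.66-fold, q-value 0.00442), began 1.36 kb inside the gene. The gap of 1704 bp between them held the CG-rich promoter printed above, whose first base of transcription (165234737) was 461 bp from the upstream peak and 1242 bp from the other.

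The first 30 kb of Cdh22 had the strongest enrichment of the gene. A peak of 18.3 kb (165205276 to 165223542) stood 11.3 to 29.6 kb from the start with 3.66-fold and a q-value of 0.00374. Before it was a peak of 294 bp (165224749 to 165225042), the narrowest of the chain, with the highest pileup of all 117 peaks, 17.4 fragments. Its fold enrichment was 3.64, since its input background was also high, at 4.05 fragments. This peak had the lowest q-value of the 117, 0.000784.

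Enrichment was lower further along Cdh22. The widest peak, of 30.5 kb (165160763 to 165191234), stood 43.6 to 74.1 kb from the start with 3.399-fold and a q-value of 0.0145. The lowest fold enrichment, 3.06, was in the peak just before it, 4802 bp wide, with a q-value of 0.0584. At the far end, a peak of 17.6 kb (165093989 to 165111574, 3.48-fold) began at the end of the gene and went on downstream. Over the chain the pileup had a median of 11.87 fragments and the fold enrichment a median of 3.36. The q-value was at most 0.05 in 15 of 16 peaks (93.75%, 71.7 to 98.9%) and at most 0.01 in 6 (37.5%, 18.5 to 61.4%). Over all peaks the shares were 60.8% and 11.0%. As for the other genes, these values come from the contrast that chose the gene.

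The Cdh22 chain was part of a longer block as well. At a joining distance of 20 kb the block ran from 165038350 to 165267768 over 229.4 kb and held 29 peaks with 163.1 kb under them. It ranked 8 of 6588 by length under peaks. Cd40, a receptor gene of antigen-presenting cells that lies 39.8 kb beyond the end of Cdh22, was inside the block and had 4 peaks over its body with 3.22 kb under them. Slc35c2, a nucleotide sugar transporter gene 41.6 kb upstream, had no peak over its body, and the nearest peak was 8.75 kb away. Inside Cdh22, the long non-coding RNA gene Gm36803 lay wholly under a peak and Gm36748 had 8.15 kb under peaks.

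Asic2 formed no such block. At 20 kb its peaks fell into 15 blocks, at 10 kb into 29 and at 5 kb into 39. The 20-kb block with the most length under peaks (81472195 to 81541895, 69.7 kb) held 10 peaks and 35.3 kb under peaks and ranked 232. Of its 72 gaps, 14 were under 2 kb (19.4%) and 14 were over 20 kb, with a median of 5.58 kb (quartiles 2.26 and 15.8 kb). The median gap was 6.76 kb over the whole list and 4.99 kb on chromosome 11, and 23.0% of all gaps were under 2 kb. Of the neighbours of Asic2, Spaca3, a sperm acrosome gene 12.3 kb beyond its end, had 1 peak over its body with 1.09 kb, and the chemokine gene Ccl2, 67.2 kb upstream, had none.

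**Figure D3:**
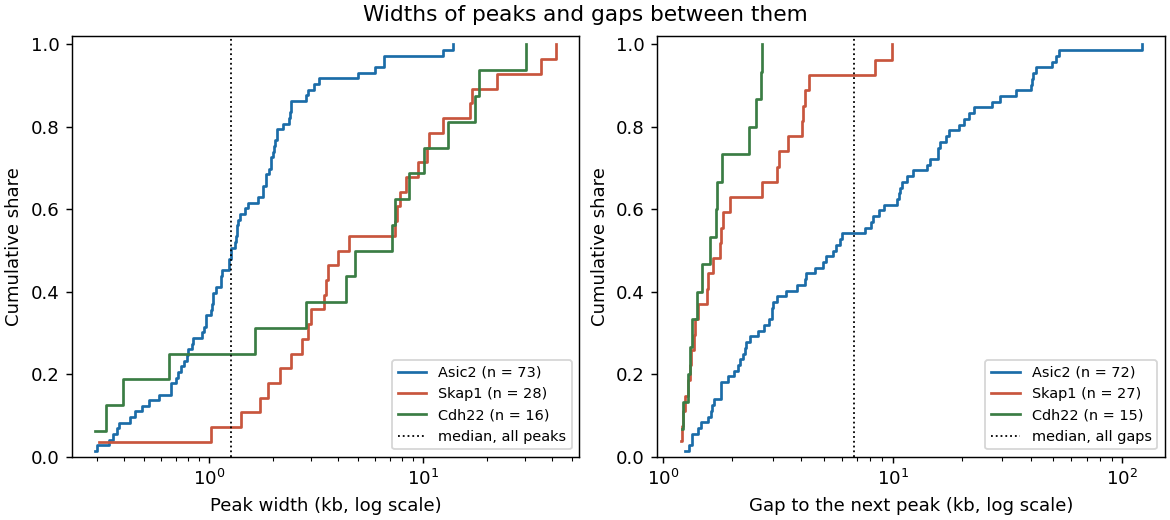
Cumulative share (vertical axis, 0 to 1) of the peak widths (left) and of the gaps to the next peak (right), both in kb on a log scale, for the peaks of Asic2, Skap1 and Cdh22, with a dotted line at the median of all 19359 peaks or of all 19339 gaps. The Asic2 curve crosses the dotted line of widths near its own median of 1.27 kb, while the gaps of Skap1 and Cdh22 lie mostly to the left of the median gap of 6.76 kb.

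The chains differed in their gaps and widths, with medians of height closer together. The median gap was 5.58 kb in Asic2, 1.76 kb in Skap1 and 1.60 kb in Cdh22. With peaks of a q-value of at most 0.01 these medians were 229.6, 10.7 and 1.70 kb, from 4, 12 and 5 gaps. Where the fold enrichment was at least 3.5 they were 229.6, 20.3 and 1.49 kb, from 4, 8 and 4 gaps. In Cdh22 no peak between 29.6 and 112.4 kb from the start met either setting. Its chain was thus broken by a wide gap that the small medians do not show. The median width with all peaks was 1.27, 4.25 and 5.99 kb in Asic2, Skap1 and Cdh22. It was 1.36, 9.49 and 10.1 kb at a q-value of at most 0.01, and 1.36, 9.49 and 7.17 kb at a fold enrichment of at least 3.5, where the order of Skap1 and Cdh22 turned. The median pileup of 10.87, 12.27 and 11.87 fragments and the median fold enrichment of 3.11, 3.41 and 3.36 lay closer together. Regions below a pileup of 9.86 fragments were not listed, which narrows the range that heights can take. Nothing is therefore read from the heights lying closer together than the gaps and widths. The smallest gaps, of 1249, 1189 and 1206 bp, were close to the smallest gap of the whole list, 1177 bp, which is 1 bp over 4 fragment lengths of 294 bp (1176 bp). Gaps shorter than this do not occur in the list, so a short gap and a continuous peak can differ by how the caller linked stretches, which was not tested.

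The input background that the caller used cannot fall below a genome-wide value. Its median was 2.70 fragments in Asic2, 2.83 in Skap1 and 2.84 in Cdh22. In 36 of the 73 Asic2 peaks (49.3%) the input background was within 1% of the genome-wide value of 2.67 fragments, against 34.8% of all peaks. This was so in 5 of 28 Skap1 peaks (17.9%) and 3 of 16 Cdh22 peaks (18.75%). The part of the input background in the differences between the chains was not tested.

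When each gene body was divided into 10 equal parts from start to end, cover was spread along Skap1 and Cdh22 and uneven along Asic2. In Skap1 the share under peaks lay between 49.5%, in the last part, and 92.5%, in the sixth. In Cdh22 it lay between 54.5%, in the last part, and 100% in the second, the fifth and the sixth. In Asic2 it was 4.6% in the first part, 1.0% in the second and 30.3% in the fifth, and between 6.7 and 16.0% in the others. None of the 3 genes had its highest cover at the start.

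**Figure D4:**
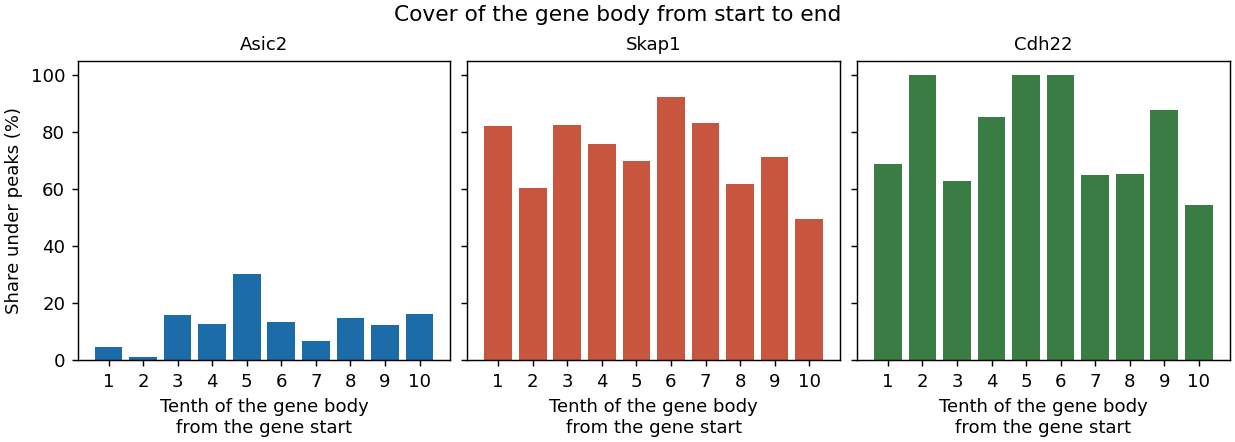
Bars give the share of each of 10 equal parts of the gene body that lay under H3K27me3 peaks (vertical axis, %, from 0), from the gene start (part 1) to the gene end (part 10), for Asic2, Skap1 and Cdh22. All parts of Skap1 and Cdh22 are at 49.5% or more, and the highest part of Asic2 is at 30.3%.

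Among long genes the 3 stood at the top of different rankings, which the choice of the genes made likely. Of 2427 protein-coding genes of 100 kb or more in RefSeq, 784 (32.3%) had a peak over the body, with a median of 2 peaks and 3.84 kb under peaks. With RefSeq gene bodies, Skap1 ranked 1 by length under peaks (214.9 kb), Asic2 ranked 2 (138.5 kb) and Cdh22 ranked 5 (97.4 kb), after Creb5 (117.8 kb) and Nav2 (108.4 kb). By share of the body, Cdh22 ranked 1 (78.9%), Skap1 ranked 2 (72.8%) and Asic2 ranked 60. These ranks count weak peaks too. With a q-value of at most 0.05, Cdh22 (92.6 kb) lay above Asic2 (90.9 kb), as it did at the stricter settings, and Skap1 lay above Cdh22 by share at a q-value of at most 0.01 or a fold enrichment of at least 3.5. With all peaks, more than 50% of the body was under peaks in only 4 of the 2427 genes, the other two being Cpeb1 (56.3%) and Casz1 (51.3%).

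Of the 15 genes closest to the members in length, 5 had a peak over the body, near the share of 32.3% among all long genes. The 5 genes nearest to Cdh22 in length (Arhgef26, Cryl1, Itfg1, Phtf2 and Myom1) had 0 peaks over their bodies. Of the 5 nearest to Skap1, Kif6 had 1 peak with 0.814 kb, and Hs6st2, Fndc3b, Ano3 and Trio had none. Of the 5 nearest to Asic2, Anks1b had 13 peaks with 30.2 kb, Nrg1 had 11 with 24.998 kb, Ctnna2 had 4, Erbb4 had 2 and Dcc had none. Among the 59 genes over 1 Mb, 41 had a peak, and the one next to Asic2 in length under peaks was Tenm2, with 30 peaks and 39.2 kb.

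**Figure D5:**
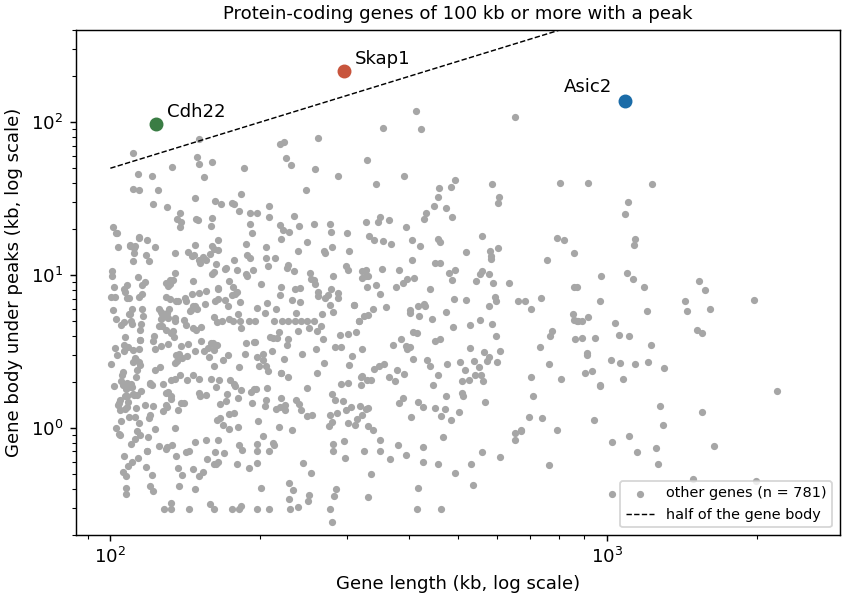
Each point is 1 of the 784 protein-coding genes of 100 kb or more with a peak, with its RefSeq length (kb, log scale) on the horizontal axis and the length of its body under peaks (kb, log scale) on the vertical axis, and the dashed line marks 50% of the body. Cdh22 and Skap1 lie above the dashed line with 2 other genes, and Asic2 lies below it at 138.5 kb.

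Some relatives of Asic2, all of them much shorter genes, had a larger share of their body under peaks. This share was 24.9% in Asic1, 18.5% in Scnn1g and 16.6% in Asic4, against 12.7% in Asic2. Of 7 other channel subunits of its family, 5 had a peak over the body, where 15.5% of all protein-coding genes had one. The acid-sensing subunit gene Asic1 was joined to 5 peaks of 10.7 kb in sum, Asic4 to 2 of 5.51 kb and Asic5 to 1 of 0.45 kb. Of the epithelial channel subunits, Scnn1g was joined to 3 peaks of 6.29 kb in sum, with a highest fold enrichment of 3.53. Scnn1b was joined to 3 peaks of 3.39 kb in sum, of which 1 lay over its body. Asic3 and Scnn1a were joined to no peak. The share of the list was 71.4% (Wilson interval 35.9 to 91.8%). The list was written with results of these data known, so nothing is read from this share.

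Among partners of Skap1 in T cells, the genes Cd3e, Cd3d and Cd3g had high cover and most others had none. Of 13 genes for adaptors, kinases and receptor chains, 4 had a peak over the body (30.8%, 12.7 to 57.6%), against 15.5% of all protein-coding genes. Fyb, the binding partner of Skap1, had 1 peak of 2.06 kb with 3.05-fold. The neighbouring genes Cd3e, Cd3d and Cd3g, which encode chains of the T cell receptor complex, were joined to 3, 4 and 2 peaks, in part the same ones. The share of the body under peaks was 80.3% in Cd3e, 78.1% in Cd3d and 88.6% in Cd3g, above the 72.9% of the much longer Skap1. Skap2 had only the flanking peak described above. The adaptor genes Lcp2 and Lat, the kinase genes Lck, Fyn and Zap70, Plcg1, the integrin gene Itgal and the receptor chain gene Cd247 were joined to none.

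Other classical cadherin genes had a smaller share of their body under peaks than Cdh22. Of 12 type II cadherins besides Cdh22, 3 had a peak over the body (25%, 8.89 to 53.2%), against 15.5% of all protein-coding genes and 32.3% of those of 100 kb or more. These were Cdh8 with 2 peaks and 3.45 kb, Cdh6 with 1 peak of 0.802 kb and Cdh12 with 1 of 0.696 kb. All 5 type I cadherins of the list had a peak over the body. Over the body, Cdh4 had 17 peaks with 17.2 kb, Cdh2 (N-cadherin) had 5 with 8.3 kb and Cdh1 (E-cadherin) had 2 with 8.86 kb. Cdh15 had 1 with 0.436 kb and Cdh3 had 1 with 0.93 kb. The largest share of the body among these 17 genes was 13.2%, in Cdh1, against 79.0% in Cdh22.

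Some peaks of the chains were joined to other gene records as well. Of the 73 Asic2 peaks, 9 were also joined to 6 other records, of Skap1 6 of 28 to 2 records and of Cdh22 4 of 16 to 2 records. Inside Asic2, the protein-coding gene 1700071K01Rik had no peak. The long non-coding RNA gene Gm11419, which reaches from inside Asic2 past its start, had 6 peaks with 7.26 kb, and Gm51910 had 4 with 6.59 kb. A peak that overlaps such genes cannot be assigned to 1 of them from these data.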

How the data were processed

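H3K27me3 ChIP and input libraries of newborn rib chondrocytes, 1 each and grouped by title, were analysed from the peak list and the annotated peak table. Per the labels, the authors used CASAVA 1.8.4, Bowtie2, MACS2 and build mm10, with no role or order given. Per the file headers, peaks were called with MACS 2.1.0.20140616 in broad mode (effective genome size 1.87 Gb, modelled fragment length 294 bp), ChIP (17574613 tags, 17237574 after filtering) against input (17369199 tags, 17004082 after filtering). The deposited pileup is a coverage signal. The deposited fold enrichment is a ratio of pileup to input background, each with 1 added. The −log10 q-values, as deposited by the authors, are means over each peak and were turned back to the linear scale. As 2 column names of the peak list had been altered, they were read from the annotated table. The authors joined peaks to Ensembl genes within 5 kb with a tool not given in the sources used here.

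Peaks, gaps, blocks (gaps of at most 20, 10 or 5 kb) and cover of gene bodies were computed in Python 3.11.15 (pandas 2.3.3, numpy 2.4.6, scipy 1.17.1, matplotlib 3.10.9) with interval functions tested on simulated data. The input background was computed from pileup and fold enrichment. Gene positions came from a list of RefSeq GRCm38.p6 gene spans that holds no exons. Promoters came from the RefSeq promoter table, which had entries for Asic2, Cdh22 and Hoxb1. Shares have 95% Wilson intervals, which cover counting error only. Named genes were the members, the genes between Hoxb13 and the end of Skap1, the nearest protein-coding genes, the 5 genes of closest length and the genes of 6 lists. Also named were, for each member, the widest peak, the peak of highest fold enrichment, the peak nearest the start and the widest gap. Genes and peaks outside this rule (Creb5, Nav2, Cpeb1, Casz1, Tenm2, the genes beyond the ends of the HoxB block and single further peaks) were chosen after their values were seen. The members and lists were chosen with earlier results of these data known. One gene was left out of the T cell list and is not reported here.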

Additional observations from a re-analysis of the deposited data

How the results depend on the processing

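The alternatives kept only stronger or wider peaks, joined shorter gaps or used another gene span. Of 66 alternatives over 16 results, 40 stayed within the limits set (1.5 times for counts and lengths, the interval of the median for medians) and 26 moved. All results are counts or lengths, so none could change sign. The limits for medians were wide. The median width of Skap1 counted as unmoved at 9.49 kb against 4.25 kb, and the median gap of Asic2 at 9.90 kb against 5.58 kb. The order of the genes did change, since Cdh22 passed Asic2 in length under peaks at a q-value of at most 0.05 and at the stricter settings. Asic2 depended most on them. With a q-value of at most 0.05 it kept 39 of 73 peaks and 90.9 kb of its body under peaks, with at most 0.01 it kept 5 peaks and 6.91 kb, with a fold enrichment of at least 3.5 it kept 5 peaks and 6.91 kb, and with a width of at least 1 kb it kept 48 peaks. Skap1 kept 13 peaks and 134.5 kb at a q-value of at most 0.01, and 9 peaks and 97.9 kb at a fold enrichment of at least 3.5. Cdh22 kept 6 peaks and 30.2 kb, and 5 peaks and 30.1 kb, under the same settings. The block from Hoxb13 to the end of Skap1 fell into 4 blocks at a q-value of at most 0.01, into 8 at a fold enrichment of at least 3.5 and into 5 when only gaps of at most 5 kb were joined. The alternative gene span of RefSeq moved no number beyond the limits. No paired analysis was possible because there was 1 library in each group. Depth limits these results through the lowest listed pileup of 9.86 fragments, since regions below it are not listed.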
